A study of Mus musculus with 8 samples.

Results

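Heat shock proteins and their J-domain and BAG partners were followed in the hearts of mice that had lost Mettl3, the catalytic subunit of the enzyme complex that writes N6-methyladenosine into RNA, from cardiomyocytes. The genes were taken by symbol: all protein-coding genes named Hspa, Hspb, Hspd1, Hspe1, Hsph1, Hsp90, Dnaja, Dnajb, Dnajc or Bag1 to Bag6, without the endoplasmic reticulum stress genes Hspa5, Dnajb9 and Dnajc3, that had a mean normalised read count of at least 1 over the 8 hearts. Of 74 such genes 72 reached this level, among 20313 genes that did so and 23045 genes listed in all. Dnajc22 and Dnajb13 fell below it. The symbol also took in 3 genes that are not heat shock proteins by function, namely Hspbp1, which releases nucleotide from HSP70, Hspbap1, which binds HSPB1, and Hspb11, a component of the intraflagellar transport machinery.

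Stranded total RNA was sequenced from heart tissue of 4 WT and 4 Mettl3 KO mice, and the labels do not say which chambers were taken. The WT mice were Mettl3 lox/lox, and the KO mice were Mettl3 lox/lox:αMHC-MerCreMer pos. Mice of both genotypes were 10 to 16 weeks old and received 100 µg tamoxifen per g body weight by intraperitoneal injection on 7 consecutive days. The αMHC promoter drives the tamoxifen-activated Cre in cardiomyocytes, so the other cells of the heart kept Mettl3. The WT mice carried no Cre, and the effects of active Cre and of Mettl3 loss cannot be told apart here.

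Molecular chaperones bind unfolded or partly folded proteins and help them reach or regain their native shape. HSP70 proteins cycle between ATP and ADP, J-domain proteins deliver clients to HSP70 and trigger its ATP hydrolysis, and HSP110 and BAG proteins release the nucleotide again. HSP90 acts on clients that are nearly folded, HSP60 with its lid HSP10 folds proteins inside mitochondria, and small heat shock proteins hold unfolded proteins without ATP. The beating heart makes heavy use of this system because its contractile proteins are under constant mechanical load, and BAG3 with HSPB8 clears damaged proteins from the Z-disc.

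From the steps of the rounded values, the libraries were estimated to hold 2631904 to 3061260 reads assigned to genes, and 3 reads corresponded to a normalised read count of 2.78 to 3.33. Mettl3 itself gave 105, 133, 118 and 107 normalised read counts in the WT hearts and 74, 68, 69 and 78 in the KO hearts, 62.4% of the WT mean, and this fall passed the test (log2 fold change -0.67 ± 0.10 (SE), adjusted p = 1.84e-04). Exon reads also cover the part of Mettl3 outside the deletion, and RNA from other heart cells is included. Cardiomyocyte markers did not pass the test in any of 6 cases, and their summed level was 12769 to 14147 in WT and 13219 to 14680 in KO hearts. Fibroblast markers were higher in KO hearts (5 of 6 passed the test, sums of 2396 to 2678 against 3064 to 3393), and endothelial markers were lower (3 of 6, sums of 3703 to 3907 against 3204 to 3500). No marker of macrophages (6), smooth muscle cells and pericytes (6), lymphocytes (6) or blood cells (4) passed. The 3 atrial markers Bmp10, Myl7 and Sln passed upwards, with sums of 0 to 38 in WT and 33 to 541 in KO hearts. Bmp10 was listed at 0 in all WT hearts and in KO heart 1, and at 195, 158 and 358 in KO hearts 2, 3 and 4. In RNA from bulk tissue, a change in the number of cells of a type and a change in RNA per cell cannot be told apart.

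The promoters of heat shock genes carry binding sites for heat shock factor 1, which are built from inverted repeats of the letters GAA. The proximal promoters of 57 of the 72 members were found in the RefSeq promoter table (GRCm38.p6), each running from 250 bases before the start of the transcript to 50 bases after it. An element was counted where GAANNTTC or TTCNNGAA occurred; both letter strings read the same on either strand. A longer element had 3 units, that is GAANNTTC followed by NNGAA, or TTCNNGAA followed by NNTTC. At least 1 shorter element was present in 16 of the 57 members (28.1%), against 17% of 27025 genes in the table, and a longer element in 4 of 57 (7.02%), against 0.662%. The 4 members with the longer element were Hsph1, Dnajb6 and the divergent pair Hspd1 and Hspe1, which share the same stretch of DNA. The following promoters are shown because they belong to members on which the expression results turn: Hsph1 and Hspa1a are inducible by stress, Hspb8, Hspb3 and Dnajb4 are the members with an element that passed the test between genotypes, and Hspa1l passed it without an element. Capitals mark the elements.
Hsph1 promoter, chr5:149636266-149636565, minus strand: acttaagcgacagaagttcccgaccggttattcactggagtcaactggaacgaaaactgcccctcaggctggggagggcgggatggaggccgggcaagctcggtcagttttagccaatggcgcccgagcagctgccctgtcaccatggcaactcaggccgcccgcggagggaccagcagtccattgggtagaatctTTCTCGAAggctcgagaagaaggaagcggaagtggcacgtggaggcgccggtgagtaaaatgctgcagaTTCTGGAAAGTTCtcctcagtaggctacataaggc
Hspa1a promoter, chr17:34972107-34972406, minus strand: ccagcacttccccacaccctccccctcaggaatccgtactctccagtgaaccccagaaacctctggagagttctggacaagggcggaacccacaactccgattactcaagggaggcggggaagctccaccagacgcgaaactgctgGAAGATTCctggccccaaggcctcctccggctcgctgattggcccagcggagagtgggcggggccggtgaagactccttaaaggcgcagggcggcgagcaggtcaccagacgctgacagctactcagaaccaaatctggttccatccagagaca
Hspb8 promoter, chr5:116422815-116423114, minus strand: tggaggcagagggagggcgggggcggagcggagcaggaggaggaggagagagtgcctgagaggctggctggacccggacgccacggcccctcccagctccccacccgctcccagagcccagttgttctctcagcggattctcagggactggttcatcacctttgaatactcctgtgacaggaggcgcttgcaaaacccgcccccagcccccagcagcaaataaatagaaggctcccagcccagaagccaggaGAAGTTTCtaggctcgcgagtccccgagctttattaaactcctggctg
Hspb3 promoter, chr13:113663627-113663926, minus strand: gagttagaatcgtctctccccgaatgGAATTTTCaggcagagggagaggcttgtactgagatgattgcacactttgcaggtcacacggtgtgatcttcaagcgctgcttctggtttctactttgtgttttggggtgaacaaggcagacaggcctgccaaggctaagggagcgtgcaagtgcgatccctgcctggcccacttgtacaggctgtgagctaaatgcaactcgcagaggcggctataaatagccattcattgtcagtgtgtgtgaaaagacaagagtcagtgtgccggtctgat
Dnajb4 promoter, chr3:152193796-152194095, minus strand: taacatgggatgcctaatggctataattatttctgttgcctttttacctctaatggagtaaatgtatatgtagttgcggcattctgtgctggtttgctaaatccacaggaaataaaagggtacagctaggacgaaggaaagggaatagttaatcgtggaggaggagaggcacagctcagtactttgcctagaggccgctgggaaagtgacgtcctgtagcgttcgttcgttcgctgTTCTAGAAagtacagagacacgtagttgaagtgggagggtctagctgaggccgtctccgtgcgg
Hspa1l promoter, chr17:34972453-34972752, plus strand: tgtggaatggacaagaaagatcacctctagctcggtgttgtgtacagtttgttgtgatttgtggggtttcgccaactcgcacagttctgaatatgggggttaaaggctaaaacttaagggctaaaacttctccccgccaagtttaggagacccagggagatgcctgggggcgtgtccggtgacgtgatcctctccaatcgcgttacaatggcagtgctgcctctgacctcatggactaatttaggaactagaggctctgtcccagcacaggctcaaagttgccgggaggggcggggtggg
The table gives 2 starts for Hsph1 and for Dnajb4, and the other start of Dnajb4 had no element. A match of letters is a description of the sequence and does not show that a factor binds there.

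Levels of the members per kb of exon spanned a wide range. In WT hearts the highest was Hsp90ab1, the constitutive cytosolic HSP90, at 421.7 normalised read counts per kb of exon. It was followed by Hspa9 (325.3 per kb), the mitochondrial HSP70, by the muscle small heat shock proteins Hspb7 (325.1 per kb) and Hspb8 (312.9 per kb), and by Hsp90b1 (295.0 per kb). Hspa9 and Hspb7 did not differ beyond their spread. Bag1 (262.2 per kb) and Bag3 (221.3 per kb) were the leading BAG proteins, and Dnaja2 (192.8 per kb) the leading J-domain protein. The lower end held the stress-inducible HSP70 genes Hspa1a (2.28 per kb) and Hspa1b (1.78 per kb), and Dnajc5b and Dnajc6 lay below them at 0.993 and 0.465 per kb. Together the 72 members took 0.713% to 0.723% of the summed values in WT and 0.717% to 0.741% in KO hearts, and their summed counts overlapped between genotypes (20396 to 20822 against 20374 to 21600).

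**Figure D1:**
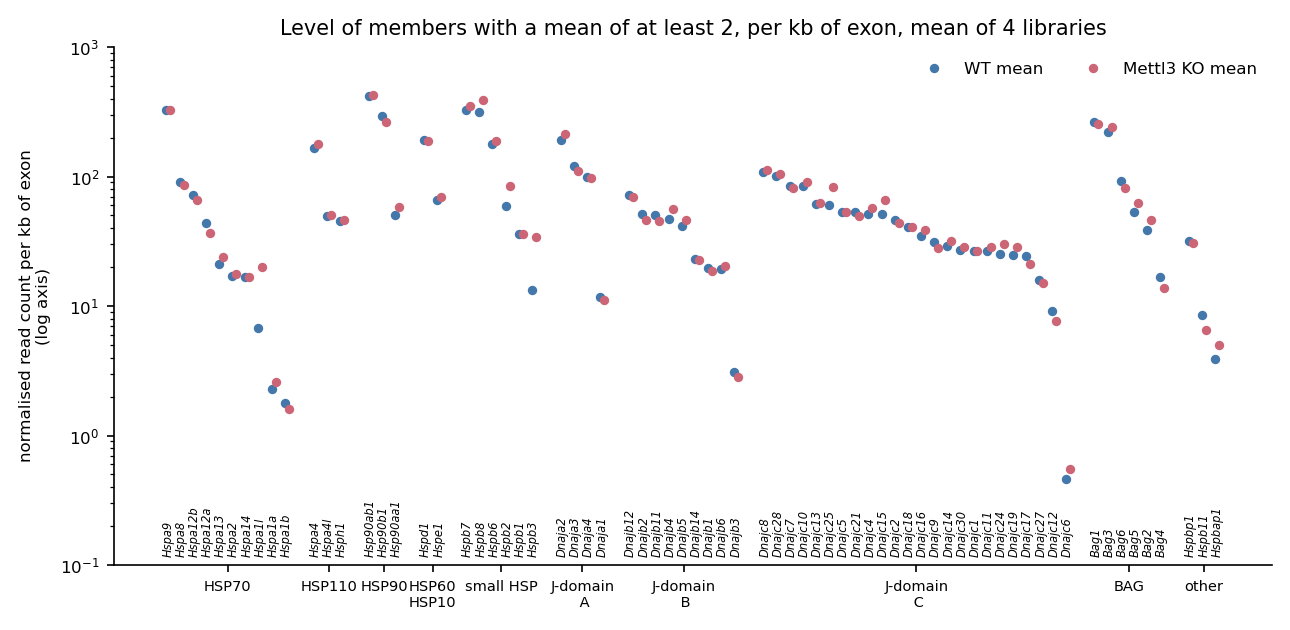
Mean normalised read count per kb of exon (log axis) in WT (blue) and Mettl3 KO (red) hearts for each of the 70 members with a mean of at least 2, by family and in falling order of the WT level. Hsp90ab1 stood highest in WT hearts at 421.7 and Dnajc6 lowest at 0.465, and the gap between the genotypes is widest for Hspa1l and Hspb3.

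Some genes of these families have near-identical copies, and reads that map to several places were left out when genes were counted. Of all windows of 72 bases in their transcripts, 56.6% in Hspa1b and 54.9% in Hspa1a also occur in a gene at another locus, which is mainly the other gene of the pair. This share was 46.7% for Hspb1, 43.3% for Hsp90aa1, 32.8% for Hspa8 and 30.6% for Hspd1, and the levels of these genes are uncertain because reads from such windows could not be assigned. It was 0 for 45 of the 72 members, and 7.33% for Hspa1l.

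The comparison of WT with Mettl3 KO hearts asked how this chaperone system stood after the loss of the m6A writer from cardiomyocytes. Of 72 members 10 passed the test (13.9%), against a background of 7.91% of all 20313 genes tested and of 1440 of the 14392 protein-coding genes among them. At a mean of at least 10 the shares were 10 of 66 members (15.2%) and 1512 of 13795 genes. Of the 10 members, 7 were higher in KO hearts, namely Hspa1l, Dnajc25, Dnajc15, Hspb8, Hspb3, Dnajb4 and Hspb2, where 4.72% of all genes were called in this direction. Hspa12a, Hsp90b1 and Bag6 were lower, where the background was 3.19%. The genotypes did not overlap in 12 members (16.7%), against 11.5% of all genes and 14.2% of protein-coding genes, namely these 10 with Hsp90aa1 and Dnaja2. The median log2 fold change over the 72 members was 0.02, against -0.01 over all genes, and 41 of the 72 values lay above 0.

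**Figure D2:**
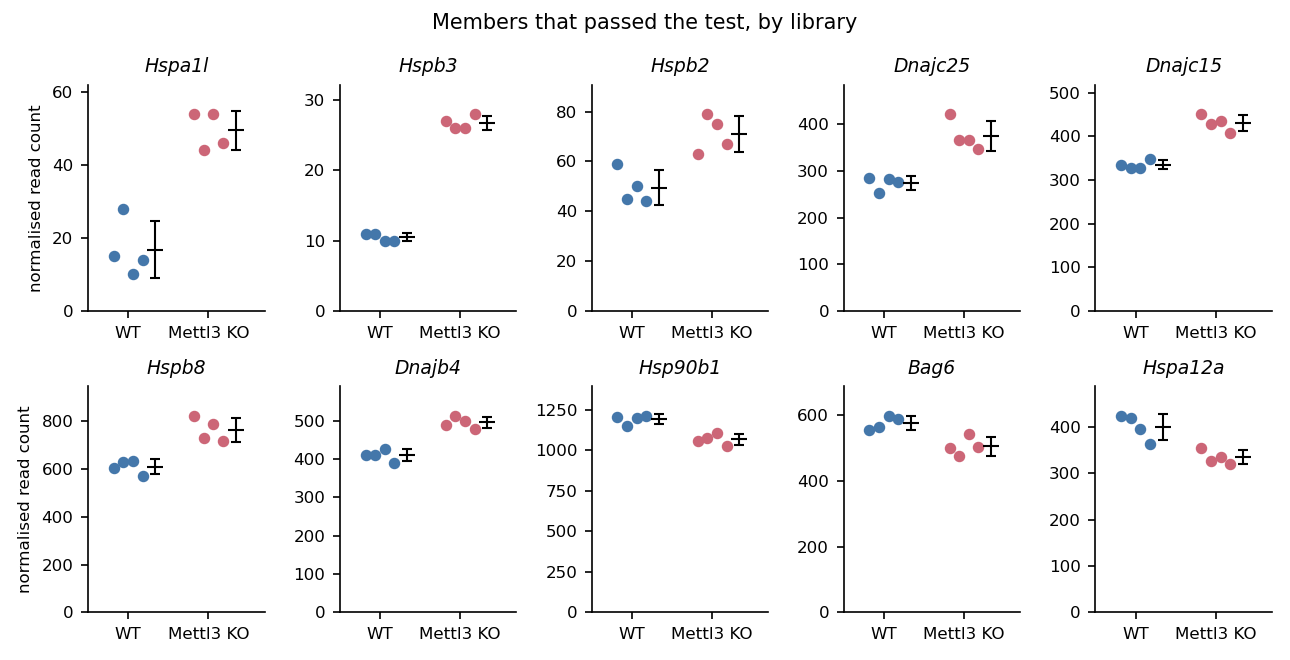
Normalised read counts of the 10 members that passed the test in each of 4 WT (blue) and 4 Mettl3 KO (red) hearts, with the mean and SD in black beside the points; each vertical axis starts at 0. The points of the genotypes do not overlap in any panel, and the KO means range from 296% of the WT mean for Hspa1l to 83.5% for Hspa12a.

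Among the HSP70 proteins, Hspa1l showed the largest change. This gene encodes an HSP70 closely related to the inducible form that is best known from testis, and it lies at chr17:35191679-35198261 (mm39, plus strand). The WT hearts gave 15, 28, 10 and 14 normalised read counts, and the KO hearts 54, 44, 54 and 46. Every KO heart was above every WT heart, with means of 16.8 ± 7.80 and 49.5 ± 5.26 (SD, n = 4 each), and the log2 fold change was 1.60 ± 0.23 (SE, adjusted p = 9.11e-05). Hspa1l starts 546 bases from Hspa1a, which runs in the opposite direction and, with 6, 6, 10 and 5 counts in WT and 3, 7, 8 and 13 in KO hearts, showed no such step. The non-coding gene Gm10501 overlaps Hspa1l on the other strand over 2387 bases and had 4 to 6 counts in WT and 6 to 8 in KO hearts, which did not pass the test (adjusted p = 0.383). The next gene on the same strand, Lsm2, was at 12 to 19 and 6 to 16 counts (adjusted p = 0.142).

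Hspa12a moved the other way. It encodes a distant HSP70 relative and lies at chr19:58784182-58932086 (mm39, minus strand). It gave 425, 420, 395 and 363 counts in WT hearts and 355, 326, 336 and 321 in KO hearts. The groups were close but separate, with a log2 fold change of -0.26 ± 0.06 (SE, adjusted p = 0.00919). A non-coding gene without a symbol overlaps Hspa12a on the other strand over 3079 bases, at 2 to 6 counts in WT and 0 to 2 in KO hearts, and did not pass (adjusted p = 0.0750). Its relative Hspa12b, known from endothelial cells, had 257 to 270 counts in WT and 210 to 267 in KO hearts, a log2 difference of -0.14 with a 95% interval from -0.28 to 0.01 that did not pass. The endothelial markers Kdr (-0.26), Tie1 (-0.27) and Cdh5 (-0.20) were also lower on the log2 scale, and the part of endothelial cells in either value was not tested. The constitutive HSP70 genes did not pass: Hspa9 differed by 0.00 (interval -0.10 to 0.10) and Hspa8 by -0.10 (interval -0.32 to 0.11). Hspa8 varied more than most members among hearts of the same genotype, with 448, 449, 346 and 332 counts in WT and 358, 462, 347 and 304 in KO hearts. Hspa13 (0.18, adjusted p = 0.280), Hspa2 (0.05, adjusted p = 0.889) and Hspa14 (0.00, adjusted p = 1) completed the family without a call.

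Of the small heat shock proteins 3 of 6 passed the test, all upwards, where 4.72% of all genes were called higher, and the median log2 fold change of the 6 was 0.22. Their summed counts did not overlap, with 1974 to 2056 in WT and 2182 to 2392 in KO hearts. Hspb8, the partner of BAG3, lies at chr5:116546550-116560923 (mm39, minus strand) and carried most of this gain. It gave 605, 631, 635 and 570 counts in WT and 824, 732, 787 and 716 in KO hearts. The lowest KO heart exceeded the highest WT heart, and the means were 610.2 ± 29.9 and 764.8 ± 49.8 (SD, n = 4 each), a log2 fold change of 0.32 ± 0.05 (SE, adjusted p = 3.11e-04).

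HSPB2 and HSPB3 form a complex with each other in muscle, and both transcripts were higher. Hspb3, at chr13:113799432-113800212 (mm39, minus strand), gave 11, 11, 10 and 10 counts in WT and 27, 26, 26 and 28 in KO hearts. The spread within each genotype was at most 0.957 (SD) while the means were 10.5 and 26.8, and the log2 fold change was 1.27 ± 0.21 (SE, adjusted p = 4.70e-04). Hspb2, at chr9:50662378-50663654 (mm39, minus strand), gave 59, 45, 50 and 44 counts in WT and 63, 79, 75 and 67 in KO hearts, which rose by 0.52 ± 0.13 on the log2 scale (SE, adjusted p = 0.0147). WT heart 1 and KO heart 1 stood close to each other. Hspb2 overlaps the alpha-crystallin gene Cryab on the other strand over 1030 bases, and Cryab, the most studied small heat shock protein of the heart, had 356, 382, 369 and 376 counts in WT and 394, 395, 371 and 337 in KO hearts, a log2 difference of 0.01 with an interval from -0.11 to 0.13. Hspb7, which acts in sarcomere assembly (875 to 941 counts in WT, 911 to 1021 in KO hearts, 0.12 on the log2 scale, adjusted p = 0.128), and Hspb6 (0.08, adjusted p = 0.584) did not pass.

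**Figure D3:**
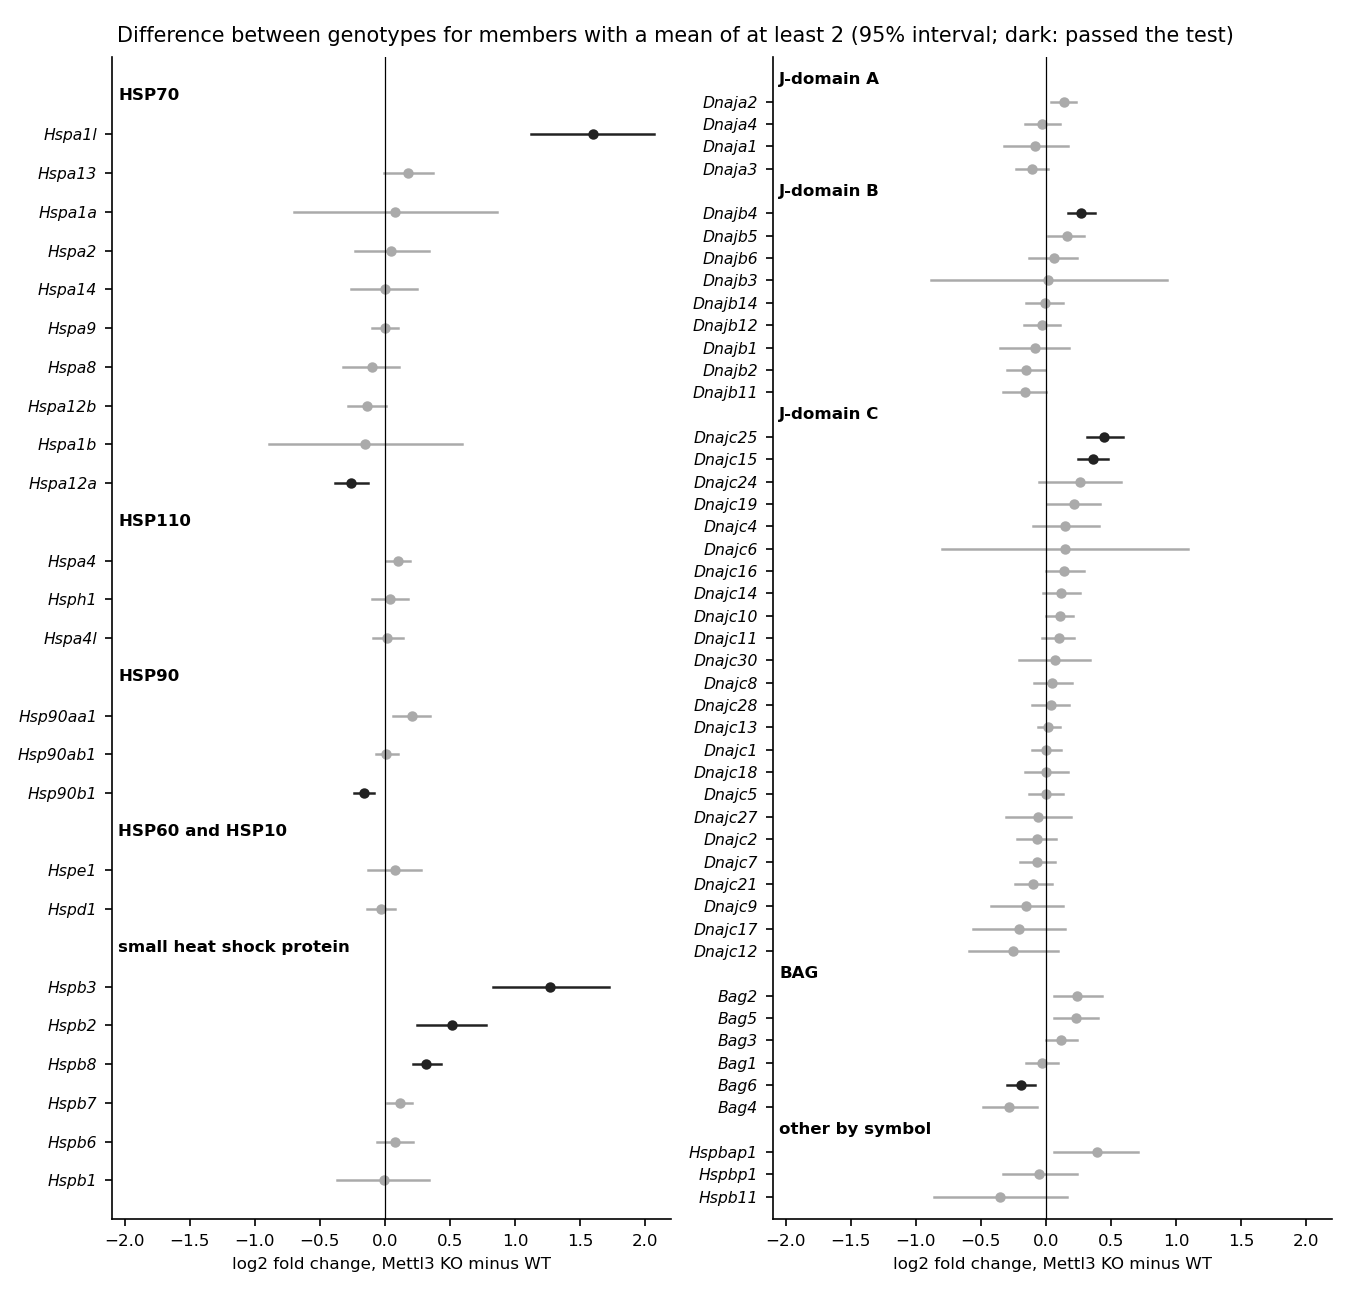
Log2 fold change of Mettl3 KO against WT hearts with its 95% interval for each of the 70 members with a mean count of at least 2, by family; dark points passed the test at an adjusted p under 0.05. Small heat shock proteins lie to the right of or close to 0, the wide intervals belong to members with few reads, and most J-domain proteins lie within 0.5 of 0.

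Of the 38 J-domain proteins 3 passed the test (7.89%), a share close to the background of all genes, and their median log2 fold change was 0.01. The summed counts of the B group did not overlap between genotypes (1764 to 1855 in WT, 1866 to 1916 in KO hearts). As a percent of the library, the B sums did overlap (0.0616 to 0.0653 in WT, 0.064 to 0.067 in KO hearts). Of the 9 B members 5 lay below 0 on the log2 scale, while the called Dnajb4 had means of 409.2 and 495.0. The summed counts of the C group did not overlap (5304 to 5422, 5585 to 5736), while those of the A group did (1447 to 1594, 1430 to 1573). All 3 called members were higher in KO hearts. Dnajc25, a membrane protein with a J domain, lies at chr4:58995062-59025573 (mm39, plus strand) and gave 285, 252, 283 and 276 counts in WT and 422, 367, 366 and 348 in KO hearts. The KO hearts were all above the WT hearts, KO heart 1 by the most, and the log2 fold change was 0.45 ± 0.07 (SE, adjusted p = 1.04e-04). The next gene on its strand, Gng10, had 27 to 29 counts in WT and 21 to 40 in KO hearts (adjusted p = 0.938).

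Dnajc15 encodes a J-domain protein of the mitochondrial inner membrane that is known as a brake on respiratory complex I, and lies at chr14:78058121-78112565 (mm39, minus strand). It gave 335, 327, 327 and 349 counts in WT and 451, 429, 435 and 407 in KO hearts. The groups were well apart, with a log2 fold change of 0.36 ± 0.05 (SE, adjusted p = 1.47e-04). Dnajc19, which is related to it and acts at the same membrane, had 86 to 111 and 104 to 126 counts, 0.22 on the log2 scale with an interval from 0.01 to 0.42 and an adjusted p of 0.220. The mitochondrial J-domain proteins Dnaja3 (-0.11, adjusted p = 0.324), Dnajc11 (0.10, adjusted p = 0.432) and Dnajc30 (0.07, adjusted p = 0.853) did not pass.

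Dnajb4, a cytosolic partner of HSP70 whose loss causes myopathy in humans, lies at chr3:151884148-151915939 (mm39, minus strand). It gave 410, 411, 427 and 389 counts in WT and 489, 513, 500 and 478 in KO hearts, with no overlap and a log2 fold change of 0.27 ± 0.05 (SE, adjusted p = 0.00134). Fubp1 starts 119 bases away in the other direction, at 674 to 752 and 708 to 783 counts (adjusted p = 0.908). Dnajb5 (0.16, adjusted p = 0.156), Dnajb6 (0.06, adjusted p = 0.797), which guards against aggregation in muscle, and Dnajb2 (-0.15, adjusted p = 0.197) did not pass, nor did Dnajc5, a J-domain protein of secretory vesicles (0.00, interval -0.13 to 0.13).

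Among the HSP90 proteins only Hsp90b1, the HSP90 of the endoplasmic reticulum, passed the test. It lies at chr10:86526073-86541373 (mm39, minus strand) and gave 1204, 1146, 1195 and 1213 counts in WT and 1054, 1076, 1108 and 1025 in KO hearts. All KO hearts were below the WT hearts by a small margin, with a log2 fold change of -0.16 ± 0.04 (SE, adjusted p = 0.0151). The non-coding genes 1810014B01Rik (other strand, 4598 bases) and Gm15344 (same strand, 977 bases) overlap Hsp90b1 and had adjusted p-values of 0.174 and 0.429, and reads over several genes of a strand had been left out. The cytosolic Hsp90ab1 was at 1235 to 1301 and 1200 to 1328 counts, a difference of 0.01 (interval -0.07 to 0.10). Hsp90aa1, the inducible cytosolic form, gave 185, 210, 190 and 205 counts in WT and 228, 243, 214 and 226 in KO hearts. It did not overlap between genotypes but missed the threshold (0.21 on the log2 scale, adjusted p = 0.0769).

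Hsp90b1 was read beside the chaperones it works with in the endoplasmic reticulum, a list of 10 genes that includes those left out of the family by name. Of these, 6 passed the test downwards and none upwards, and the median log2 fold change was -0.23. For comparison, 3.19% of all genes were called lower and 4.72% higher. The list was chosen with earlier results of these data known, and its direction is not independent evidence. Hyou1, an HSP110 relative of this compartment, gave 321, 288, 328 and 275 counts in WT and 219, 201, 179 and 192 in KO hearts (-0.61 ± 0.07, adjusted p = 1.31e-05). Sdf2l1, which holds on to misfolded proteins together with HSPA5, gave 37, 35, 43 and 36 against 18, 19, 20 and 19 (-0.95 ± 0.17, adjusted p = 0.00108). Every KO heart was below every WT heart in both genes. The lectin chaperones Canx (-0.28, adjusted p = 7.69e-05) and Calr (-0.21, adjusted p = 0.00378), the HSP70 Hspa5 (-0.25, adjusted p = 0.00202) and its J-domain partner Dnajc3 (-0.25, adjusted p = 0.0358) were lower by less, and Dnajc3 overlapped between genotypes. With the 3 atrial markers as a covariate, Hyou1 and Canx still passed, while Sdf2l1 (-0.91, adjusted p = 0.0736), Calr (-0.18, adjusted p = 0.149), Hspa5 (-0.10, adjusted p = 0.425) and Dnajc3 (-0.06, adjusted p = 0.815) did not. Dnajc3 also missed the threshold without any of 5 single hearts (WT hearts 1 and 3, KO hearts 2, 3 and 4), with adjusted p-values up to 0.147. Pdia4 (-0.12), Pdia3 (-0.11), Dnajb9 (-0.03) and Sil1 (0.08) did not pass. The members in the same compartment are not listed in full here. Among them, Dnajb11 had 153 to 169 counts in WT and 136 to 156 in KO hearts (-0.16, interval -0.33 to -0.00, adjusted p = 0.237). Dnajc10, also among them, was at 398 to 445 and 445 to 463 (0.11, adjusted p = 0.255).

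**Figure D4:**
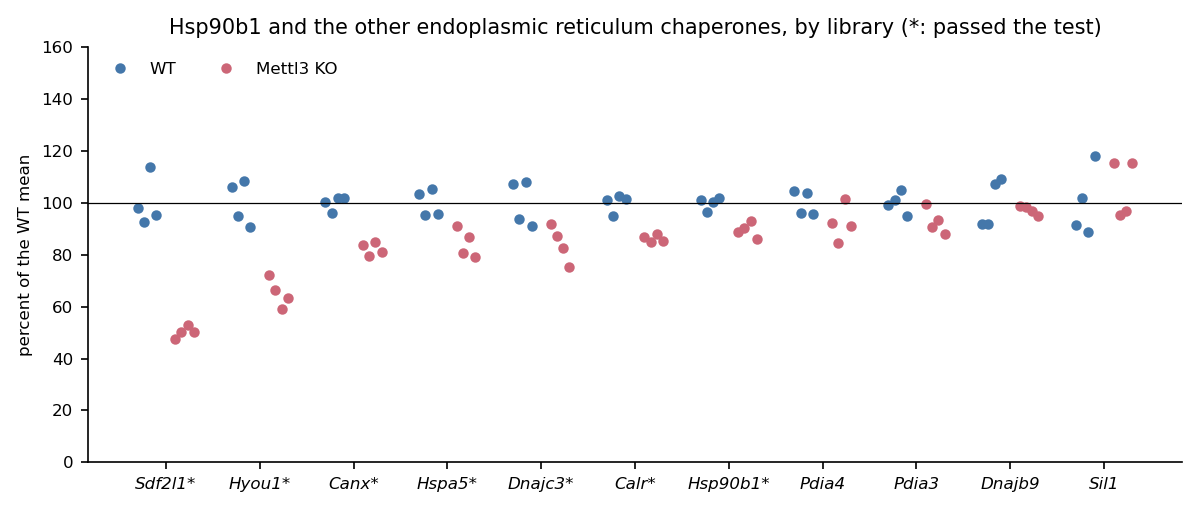
Values of Hsp90b1 and the 10 listed endoplasmic reticulum chaperones in each of 4 WT (blue) and 4 Mettl3 KO (red) hearts, as a percent of the WT mean of that gene; stars mark genes that passed the test. Sdf2l1 and Hyou1 stand lowest in KO hearts with means of 50.3% and 65.3%, Hsp90b1 stands at 89.6%, and Sil1 and Dnajb9 straddle the WT values.

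Of the 6 BAG proteins only Bag6 passed the test. BAG6 guides tail-anchored proteins to the endoplasmic reticulum and sends mislocalized ones to degradation, and its gene lies at chr17:35354154-35366298 (mm39, plus strand). It gave 554, 563, 599 and 588 counts in WT and 500, 476, 544 and 502 in KO hearts. The groups were separated by 10 counts, with a log2 fold change of -0.19 ± 0.05 (SE, adjusted p = 0.0256). Gpank1, on the same strand 10363 bases away, passed in the other direction, with 32, 26, 30 and 28 counts in WT and 44, 47, 56 and 50 in KO hearts (0.74 ± 0.15, adjusted p = 0.00284). Bag4 lay just outside the threshold (-0.28, adjusted p = 0.0927), and Bag2 (0.24) and Bag5 (0.23) had adjusted p-values of 0.10 and 0.101. Bag1 was at 341 to 370 and 329 to 373 counts (-0.03, interval -0.15 to 0.09). The other member with an adjusted p between 0.05 and 0.1, besides Bag4 and Hsp90aa1, was Dnaja2, a general cytosolic J-domain protein (552 to 591 counts in WT, 602 to 651 in KO hearts, 0.14, adjusted p = 0.0785).

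A further 6 members known to be inducible by stress, a list chosen by name, were read heart by heart, and none of them passed the test. The list does not cover every inducible member. Outside it lie Hspb8, Hspb3 and Dnajb4, whose promoters hold an element and which passed upwards. Hsp90aa1, which is also inducible, was described above with its non-overlapping values and an adjusted p of 0.0769. Hspa1a, the main inducible HSP70, gave 6, 6, 10 and 5 counts in WT and 3, 7, 8 and 13 in KO hearts, and its copy Hspa1b 5, 6, 4 and 5 against 6, 3, 5 and 4. These are a few reads per heart, and the 95% intervals of the log2 difference reach from -0.70 to 0.86 and from -0.89 to 0.59. A change within these limits was not detectable at this depth.

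Hspb1, the inducible small heat shock protein known as HSP25 in the mouse, gave 30, 36, 42 and 41 counts in WT and 28, 43, 40 and 37 in KO hearts (-0.01, interval -0.37 to 0.34). Dnajb1, the inducible J-domain partner of HSP70, gave 64, 68, 58 and 61 against 49, 57, 70 and 62 (-0.08, interval -0.35 to 0.18). Both sets of values overlapped throughout. Hsph1, the inducible HSP110 whose promoter holds the longer element shown above, gave 292, 352, 352 and 313 against 304, 353, 350 and 337, a log2 difference of 0.04 with an interval from -0.10 to 0.18. Bag3 gave 567, 563, 611 and 527 against 672, 577, 635 and 586 (0.12, interval 0.00 to 0.24, adjusted p = 0.221). With the atrial markers as a covariate Bag3 did pass (0.29, adjusted p = 0.0238). Only KO hearts 1 and 3 lay above all WT hearts in Bag3, while its partner Hspb8 was higher in all 4.

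**Figure D5:**
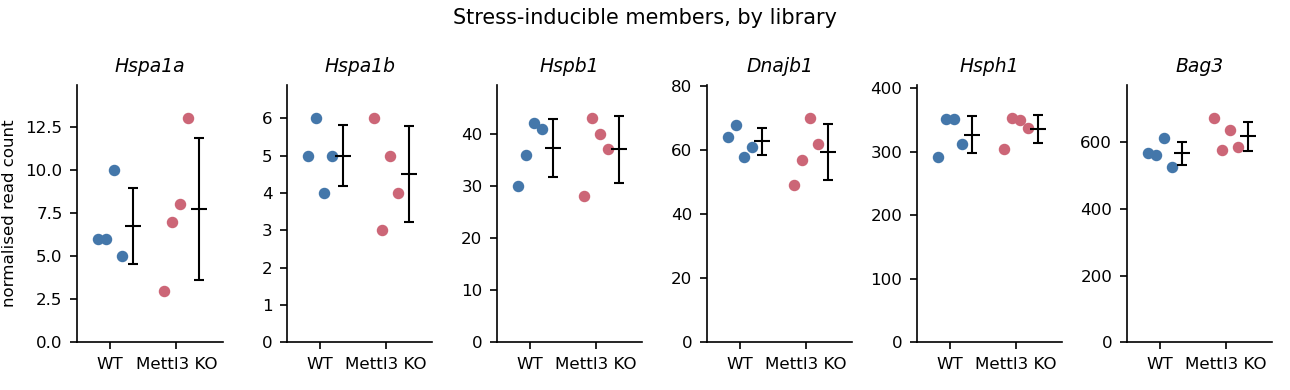
Normalised read counts of 6 stress-inducible members (Hspa1a, Hspa1b, Hspb1, Dnajb1, Hsph1 and Bag3) in 4 WT (blue) and 4 Mettl3 KO (red) hearts. The mean and SD are in black, and each vertical axis starts at 0. The genotypes overlap in all 6 panels, and Hspa1a and Hspa1b stay at or below 13 counts in every heart.

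The same members were compared by promoter. Of the 16 members with an element 3 passed the test, all upwards (Dnajb4, Hspb3 and Hspb8), and their median log2 fold change was 0.07. Over all genes 7.91% passed and 4.72% did so upwards. Of the 41 members in the promoter table without an element 6 passed, 3 upwards (Dnajc15, Dnajc25 and Hspa1l) and 3 downwards (Bag6, Hsp90b1 and Hspa12a), with a median of 0.02. Hspb2, which passed upwards, was not in the promoter table and belongs to neither group. The shares called with and without an element were 18.8% and 14.6%, and their difference was not tested. The Hspa1l promoter printed above, which faces that of Hspa1a, held neither letter string, while Hspa1a, with an element, did not pass.

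The HSP110 and HSP60 families gave no call by limma. Hspa4 had 882 to 938 counts in WT and 929 to 1051 in KO hearts (0.10, interval 0.01 to 0.19, adjusted p = 0.209), and Hspa4l differed by 0.02 (interval -0.09 to 0.14). Hspd1, the mitochondrial HSP60, differed by -0.03 (interval -0.14 to 0.08), and its lid Hspe1 by 0.08 (interval -0.13 to 0.28). Over all members, 23 had an unadjusted p under 0.05 (31.9%, against 20.6% of all genes). Of the 62 members that did not pass, the 95% interval lay within 0.5 of 0 on the log2 scale for 51, and 6 members had a mean under 10 counts.

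Genes that work with the family were counted in further lists. None of 5 tested heat shock factors and regulators passed, and Hsf1, the master regulator of the heat shock response, had 103 to 118 counts in WT and 96 to 120 in KO hearts (0.00, interval -0.19 to 0.20). None of the 8 subunits of the cytosolic chaperonin TRiC and none of the 6 of prefoldin passed. Of 20 co-chaperones of HSP70 and HSP90, Chordc1, which binds HSP90, was lower (317, 328, 308 and 275 against 269, 266, 271 and 247, log2 fold change -0.22 ± 0.07, adjusted p = 0.0414), and the other 19 did not pass. The groups did not overlap for Chordc1, although WT heart 4 was close to the KO values. Chordc1 missed the threshold when WT heart 1, 2 or 3 or KO heart 2, 3 or 4 was left out (adjusted p up to 0.145). With the atrial markers as a covariate it did not pass either (-0.18, adjusted p = 0.387).

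Of 10 mitochondrial chaperones and proteases only Grpel2, which releases nucleotide from the mitochondrial HSP70, passed. It gave 121, 127, 138 and 116 counts in WT and 215, 163, 173 and 154 in KO hearts, all above WT (0.48 ± 0.10, adjusted p = 0.00241). Of 4 partners of BAG3 in autophagy, Flnc, the filamin that this pathway clears at the Z-disc, was higher (1562, 1623, 1753 and 1588 against 1990, 1815, 1979 and 1803, 0.22 ± 0.04, adjusted p = 0.00235). In all, 10 of 66 companion genes passed (15.2%), against 7.91% of all genes and 10% of protein-coding genes. The 7 that were lower are 6 of the endoplasmic reticulum list and Chordc1.

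The values of the atrial markers differed among the KO hearts, which allowed the members to be read beside them. KO heart 1, in which Bmp10 was at 0, Myl7 at 23 and Sln at 10, all within the WT range, had the highest value of all hearts for Dnajc25, Dnajc15 and Hspb8. It was the KO heart closest to WT for Hspb2 (63 counts, with WT hearts up to 59) and for Hspa12a (355 counts, with WT hearts down to 363). With the atrial markers as a covariate, Hspa1l, Dnajc25, Dnajc15, Hspb8, Hspb3 and Dnajb4 still passed. Over all genes 903 passed in that fit, against 1607 without the covariate. Hspb2 (0.39, adjusted p = 0.352), Hspa12a (-0.20, adjusted p = 0.276), Hsp90b1 (-0.16, adjusted p = 0.163) and Bag6 (-0.16, adjusted p = 0.303) kept their direction and did not pass. Bag3 and Hspa4 (0.21, adjusted p = 0.0453) passed in this fit only. The fibroblast and endothelial sums did not overlap between genotypes, so their part in the differences cannot be told apart from genotype.

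Single hearts changed the calls of 4 members. Hspb2 missed the threshold without WT heart 2 or 4 or KO heart 2 or 3, with adjusted p-values of 0.0534 to 0.0668. Bag6 did so without WT heart 3 or 4 or KO heart 2 or 4 (0.0643 to 0.0995). Hsp90b1 did so without WT heart 1 or 4 or KO heart 4 (0.0518 to 0.0533). Bag4 passed without KO heart 1 (adjusted p = 0.0425). With the atrial markers as a covariate, its log2 fold change went from -0.28 to -0.08 (adjusted p = 0.843). The other 7 of the 10 passed whichever heart was left out, with the highest adjusted p for Hspa12a (0.0458).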

How the data were processed

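RNA was isolated from hearts, and stranded total RNA libraries were sequenced with 72-base single-end reads. Per the labels, the deposited values are counts that the authors had normalized with DESeq2 (1.36.0) and rounded, and they were handled as a score. The submitters' processing notes name Trimmomatic (0.39), STAR (2.7.11a), Picard (3.1.1), featureCounts (2.0.4) and mm39. By the study's methods, duplicate, multi-mapping, ribosomal and mitochondrial reads had been removed, genes came from Ensembl 109, and reads were counted by strand. Rounding allowed the reads per library to be estimated.

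Genes with a mean of at least 1 were tested with limma (3.58.1, R 4.3.3, mean-variance trend) on log2(value + 1), genotype only, with Benjamini-Hochberg adjustment over 20313 genes. Log2 fold changes of low genes are understated by the added 1. A gene passed at an adjusted p under 0.05. The replicates are separate samples in the labels. The p-values and SEs rest on the spread between them, which limma draws towards that of genes of like level. The fit was checked on simulated data. Exon lengths and shared windows came from GENCODE M21, promoters from RefSeq, and figures from matplotlib (3.10.9).

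Members and lists were chosen with earlier results of these data known. All members that passed, a fixed list of further members, companions that passed, and Mettl3 are named, except items that are not reported here. Other filters, pseudocounts, scalings, voom weights, a fit without trend, a replicate block, an atrial covariate and the omission of each library were tried.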

Additional observations from a re-analysis of the deposited data

Results flagged for a closer look

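In each genotype the 4 values of every member and companion gene given heart by heart, of Mettl3 and of both depth measures were searched for a heart far from the other 3 with Dixon's ratio. None of 54 sets of 4 values exceeded its 95% critical value for 4 samples, where chance gives about 2.7.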

How the results depend on the processing

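All 10 members that passed kept their direction under every alternative run, and the same 10 passed under each filter, pseudocount and scaling and with voom. The replicate block left 10 members called; the replicate numbers do not pair the samples, since deviations of same-numbered hearts correlated at -0.004 to 0.022. Without the mean-variance trend, 3 members passed (Hspa1l, Dnajc15 and Hspb3), 3 upwards and 0 downwards, with 12 and 4 at an unadjusted p under 0.05, and 2 companion genes passed; all genes called fell from 1607 to 321. With the atrial covariate 8 members passed, 0 of them downwards (3 at an unadjusted p under 0.05), and Bag3 and Hspa4 were gained. The number of all genes called fell from 1607 to 903 with this covariate. Of the 6 companion genes that passed in this fit, only Hyou1, Canx, Flnc and Grpel2 had also passed in the main fit. Restricting the fit to the 5 hearts with Bmp10 at 0, chosen after seeing the data, left 1 KO heart, which is assumed to vary like the WT hearts; limma then called 4 genes in all and 0 members, 0 upwards and 0 downwards (11 and 4 at an unadjusted p under 0.05), and 0 companions (13 unadjusted). The log2 fold changes there were 1.73 for Hspa1l, 1.29 for Hspb3, 0.62 for Dnajc25, 0.43 for Dnajc15 and Hspb8, 0.26 for Dnajb4, -0.17 for Hsp90b1 and -0.20 for Bag6, and nearer 0 than in all hearts for Hspb2 (0.35) and Hspa12a (-0.17). The causes of these changes in calls were not tested, and the last fit also held fewer hearts. Leaving out single hearts gave 7 to 11 members called, 6 to 7 upwards and 1 to 4 downwards, and 7 to 11 companions. Over all genes 1005 to 1593 were called in these fits. In these runs 13 to 19 members did not overlap, but leaving out a heart can only keep or raise this number. The share of all genes without overlap was not counted there. Members with few reads, such as Hspa1a and Hspa1b, are limited by depth.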
